A study of Mus musculus with 15 samples.

Results

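The cytosolic sulfotransferases examined here are 8 mouse genes, Sult1a1, Sult1b1, Sult1c2, Sult1d1, Sult1e1, Sult2a8, Sult3a1 and Sult5a1, chosen by their symbols from the 23420 genes in the count tables. All 8 were found, Sult2a8 under its older symbol 2810007J24Rik. Polyadenylated RNA of the left liver lobe, pulverized before extraction, was sequenced from male mice of the inbred strain C57Bl/6J. The MCD group (5 libraries) received a diet with 31% fat that was deficient in methionine, choline and folate. The HFD group (5 libraries) received a diet with 31% fat, and the BD group (5 libraries) a base diet with 4% fat. Every library, BD included, carries the label of the vehicle alone (5% Alkmauls El-620 in saline) and was collected 24 h after that treatment, so no untreated mice and no mice given a test chemical entered. Neither the age of the mice nor the time on diet is given in the labels. Whether the 5 libraries of a diet come from 5 separate mice is not stated either, so the p-values reflect only how far these samples differ, which may be technical.

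Cytosolic sulfotransferases move a sulfonate group from the donor PAPS (phosphoadenosine phosphosulfate) onto hydroxyl or amino groups of hormones, bile acids and foreign compounds, which makes most of them more soluble in water. In liver this conjugation stands beside glucuronidation as a main route of phase II metabolism. The reaction depends on PAPS, which PAPS synthases make from sulfate and ATP, and it leaves PAP, a product inhibitor that phosphatases break down. Methionine, low in the MCD diet, is a dietary source of the sulfur from which sulfate is formed.

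Of the 8 genes, 6 passed the filter on low counts and were tested among 12193 genes. Sult1e1 and Sult3a1 were too low to test. Values below are CPM (gene counts relative to library size), scaled with the trimmed mean of M-values (TMM). Each adjusted p is from edgeR's quasi-likelihood test with Benjamini-Hochberg adjustment over all genes tested, and a gene is called changed at an adjusted p under 0.05. Depth ran from 3704642 to 23131089 counts in genes per library. On the first principal component of all tested genes (37.05% of the variance), HFD replicate 2 lay at 28.4, within the MCD range of 15.6 to 39.4, and the other HFD libraries lay between -12.7 and -0.415. Calls of the sulfotransferases and counts of the gene lists that change without this library are given with and without it. The BD libraries lay between -37.8 and -21.1, and the serial numbers in their titles were at least 66 apart from those of the other diets. What that numbering stands for is not given in the sources used here, and anything tied to it cannot be told apart from the diet.

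The genes lie on 5 chromosomes (GRCm38, GENCODE M21). Sult1b1 (chromosome 5, 87513339 to 87538195), Sult1d1 (87554645 to 87569027) and Sult1e1 (87575969 to 87591594) are neighbours on the minus strand within 78256 bases. Promoter sequence is shown for this cluster, because its 3 neighbours differ widely in level, and for Sult2a8 and Sult1a1, the genes with the highest levels. Each stretch is 150 bases, 5′ to 3′ on the gene's own strand, taken from the RefSeq promoter table (GRCm38.p6) upstream of a RefSeq start and of any annotated exon there. The Sult2a8 stretch precedes a start that lies inside the annotated gene. Capitals mark matches to 6 motifs searched on both strands, namely TATAAA (the TATA box), CCAAT (the CCAAT box), AGGTCA (a nuclear receptor motif), GTTAAT (an HNF1 motif), CAAAGTCCA (an HNF4 motif) and CACGTG (an E-box), and none of the marked matches overlap.
Sult1b1, chr5:87538196-87538345, minus strand: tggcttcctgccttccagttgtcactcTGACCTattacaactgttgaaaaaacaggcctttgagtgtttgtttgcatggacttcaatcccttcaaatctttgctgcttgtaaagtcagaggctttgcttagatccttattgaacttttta
Sult1d1, chr5:87569028-87569177, minus strand: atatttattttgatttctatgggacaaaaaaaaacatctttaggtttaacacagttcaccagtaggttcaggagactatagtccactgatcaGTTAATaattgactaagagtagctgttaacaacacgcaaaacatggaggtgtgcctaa
Sult1e1, chr5:87591612-87591761, minus strand: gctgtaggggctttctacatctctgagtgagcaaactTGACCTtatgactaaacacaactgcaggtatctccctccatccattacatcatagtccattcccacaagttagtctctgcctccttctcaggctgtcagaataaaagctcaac
Sult2a8, chr7:14438562-14438711, minus strand: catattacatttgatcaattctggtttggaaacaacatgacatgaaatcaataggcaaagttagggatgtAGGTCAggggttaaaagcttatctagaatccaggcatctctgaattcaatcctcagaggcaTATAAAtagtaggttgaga
Sult1a1, chr7:126676433-126676582, minus strand: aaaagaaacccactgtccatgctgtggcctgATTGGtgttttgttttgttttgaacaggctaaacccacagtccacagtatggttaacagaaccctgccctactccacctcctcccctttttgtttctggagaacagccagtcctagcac

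The Sult1b1 and Sult1e1 stretches hold TGACCT, the reverse complement of AGGTCA. Sult1d1, between them, has no match to that motif in this window and holds GTTAAT. Sult2a8 has AGGTCA together with TATAAA, and Sult1a1 has ATTGG, the reverse complement of CCAAT. Among 32851 stretches of the same length directly before a RefSeq start, AGGTCA occurred in 8.58%, GTTAAT in 3.71%, TATAAA in 7.57% and CCAAT in 24.5%. CAAAGTCCA (0.271%) and CACGTG (4.29%) had no match in the 5 stretches shown. A second Sult1b1 stretch before another RefSeq start (87536223 to 87536372), not shown, held none of the motifs. The stretches of Sult5a1 and Sult3a1, not shown either, also held none. The contrast of Sult1b1 with Sult1d1 thus depends on the Sult1b1 start used. A match is a description of letters and does not show that a factor binds there.

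Per kb of transcript, the scale on which genes can be set side by side, Sult2a8 had the highest level in all 3 diets. It reached 320 ± 49.9 CPM per kb in MCD, 388 ± 80.3 in HFD and 471 ± 97.4 in BD (SD, n = 5 each). Sult1a1 followed with 194 ± 21.9 CPM per kb in MCD, 162 ± 19.9 in HFD and 230.4 ± 43.4 in BD. Sult1d1 stood next with 53.6 ± 5.13 CPM per kb in MCD, 45.0 ± 9.14 in HFD and 56.6 ± 14.4 in BD. In BD the ranges of neighbours in this order did not overlap down to Sult1c2, which stood in place 6.

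The lower places changed with the diet. In MCD, Sult1c2 (7.29 to 10.96 CPM per kb) overlapped Sult1b1 (7.36 to 12.8) and lay above Sult5a1 (1.63 to 4.23). In HFD, Sult1c2 (2.61 to 7.61) overlapped both Sult1b1 (7.13 to 8.37) and Sult5a1 (0.818 to 3.34). In BD, Sult1c2 (1.79 to 2.48) lay below both Sult5a1 (2.66 to 4.70) and Sult1b1 (8.57 to 14.7). In the chromosome 5 cluster, the mean level per kb in BD was 5.07 times higher for Sult1d1 than for Sult1b1, while Sult1e1 had 7 counts in all in the BD libraries. The summed level of the 8 genes was 589 ± 70.3 CPM per kb in MCD, 610.3 ± 86.1 in HFD and 775 ± 131 in BD (SD, n = 5 each). Sult2a8 made up 54.2% of that sum in MCD, 63.2% in HFD and 60.7% in BD on average.

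**Figure D1:**
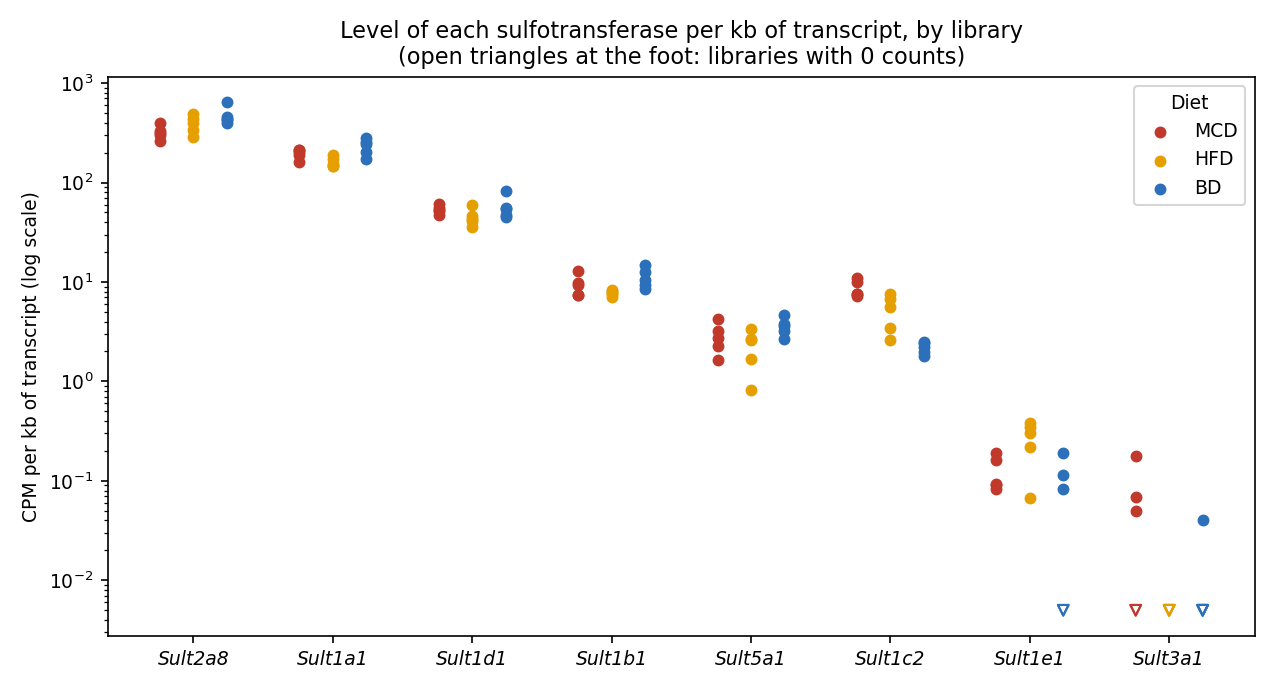
CPM per kb of transcript (log axis) of the 8 sulfotransferase genes, 1 point per library, with MCD, HFD and BD side by side and open triangles for libraries with 0 counts. Genes run by their BD level, and Sult1c2 is the gene whose place shifts, with 7.29 to 10.96 CPM per kb in MCD against 1.79 to 2.48 in BD.

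In MCD against BD, 2 of the 6 tested genes were called, Sult1c2 higher and Sult2a8 lower, where 21.4% of all genes tested were called (12.8% higher, 8.64% lower). In HFD against BD, 2 of 6 were called, Sult1c2 higher and Sult1a1 lower, where 6.92% of all genes were called (3.65% higher, 3.27% lower). In MCD against HFD none of the 6 was called by edgeR, where 3.15% of all genes were called (2.22% higher, 0.927% lower). The share over all genes in MCD against HFD hung on single libraries, with 10.1% called without HFD replicate 2 and 0.603% without HFD replicate 4. Sult1c2 and Sult1a1 had an unadjusted p under 0.05 there, as had 19.9% of all genes. DESeq2, which called 717 of 17584 genes (4.08%, with genes of low counts kept in the total), called Sult1c2 alone of the 6. Limma-voom, which called 520 of 12193 genes (4.26%), did the same. The median log2 fold change over the 6 genes was -0.26 in MCD against BD (-0.03 over all genes tested), -0.42 in HFD against BD (-0.01 over all genes) and 0.26 in MCD against HFD (0.00 over all genes). The comparisons with BD share the BD libraries. Counts called in the gene lists below are to be read beside the shares over all genes called in the same direction. Those were 12.8% higher and 8.64% lower in MCD against BD, 3.65% and 3.27% in HFD against BD, and 2.22% and 0.927% in MCD against HFD. Over both directions they were 21.4%, 6.92% and 3.15%.

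Sult1c2, whose human counterpart sulfates small phenols, was the only one of the 6 called in both comparisons with BD. Its MCD libraries had 18.3, 20.2, 13.5, 14.1 and 13.9 CPM, and its HFD libraries 10.5, 14.1, 6.39, 4.83 and 12.4 CPM. Its BD libraries had 4.54, 3.30, 3.62, 4.12 and 4.57 CPM. Every MCD and every HFD library lay above every BD library, while MCD and HFD overlapped through HFD replicate 2, the highest of its diet. No overlap upwards was seen in 9.3% of all genes in MCD against BD and in 3.49% in HFD against BD.

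Sult1c2 rose 3.98-fold in MCD against BD (log2 fold change 1.99 ± 0.25 SE, 95% interval 1.47 to 2.51, edgeR adjusted p = 3.95e-05). It rose 2.40-fold in HFD against BD (log2 1.26 ± 0.25, interval 0.73 to 1.80, edgeR adjusted p = 0.00458). Between MCD and HFD the log2 difference was 0.73 ± 0.23 (interval 0.25 to 1.21, edgeR adjusted p = 0.0847). Without HFD replicate 2 that difference was 0.93 and was called (edgeR adjusted p = 0.0148), in a fit that called 10.1% of all genes against 3.15% with that library. HFD against BD was 1.09 without it and still called (edgeR adjusted p = 0.0128, where 5.31% of all genes were called). The BD libraries rest on 16 to 97 counts of the gene each. Of its 50-base stretches 0.723% were shared with other genes, most of them with Sult1c2-ps2. Sult1c2 lies on chromosome 17, 53829637 to 53846339, minus strand.

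**Figure D2:**
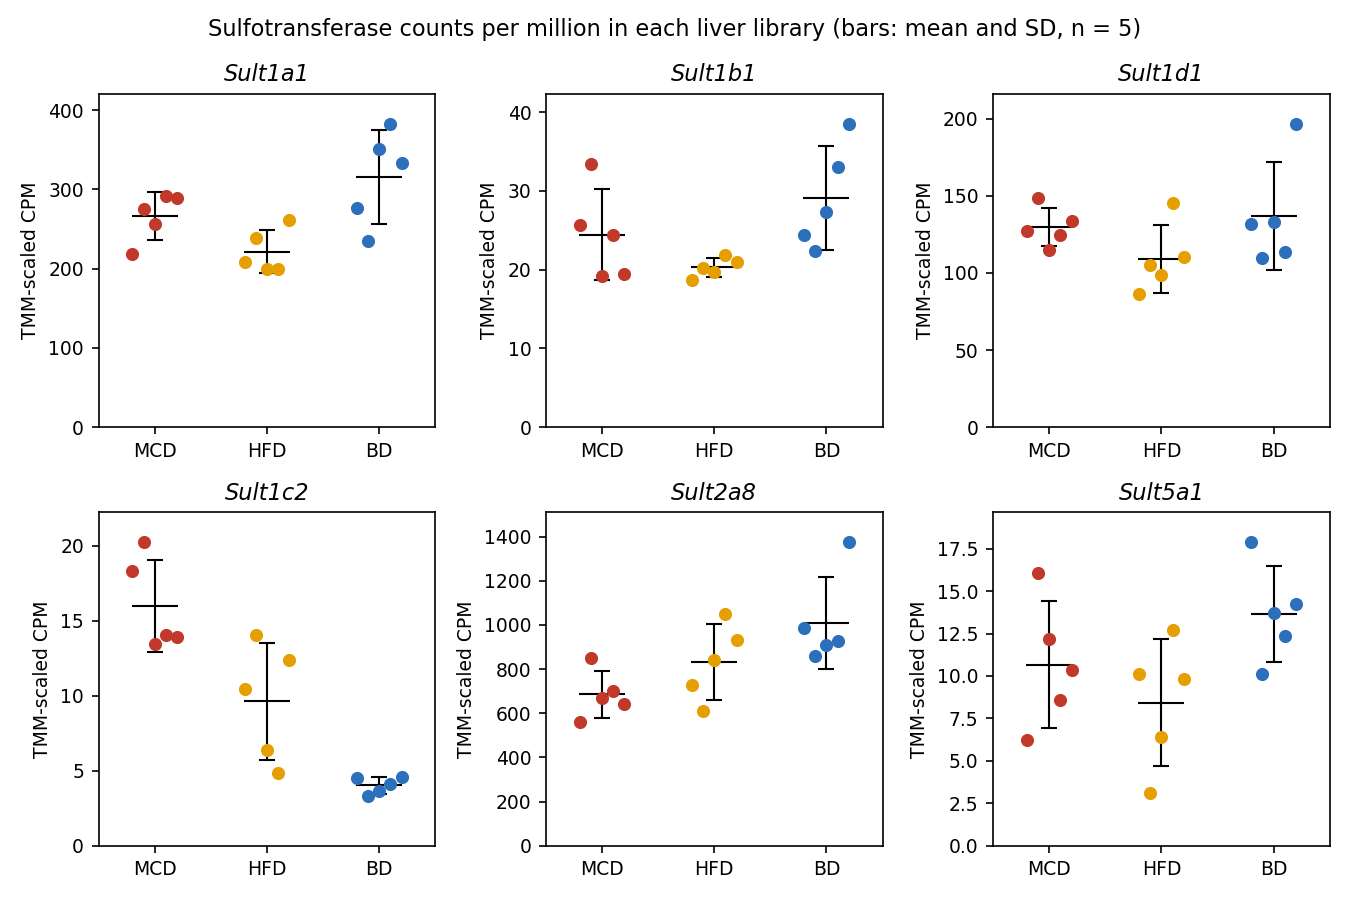
TMM-scaled CPM of the 6 tested sulfotransferase genes in each library, with MCD, HFD and BD from left to right, points for libraries and black bars for the mean and SD (n = 5). Sult1c2 stands higher in every MCD and HFD library than in any BD library, and Sult2a8 runs from 559 to 851 CPM in MCD against 857 to 1374 in BD.

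The libraries with more Sult1c2 were in part those with more RNA of macrophage, stellate cell and fibroblast, and cholangiocyte markers. HFD replicate 5, with 12.4 CPM of Sult1c2, had the lowest macrophage sum of its diet (412 CPM). MCD replicate 4, with 14.1 CPM of Sult1c2, had the highest stellate cell and fibroblast sum (916 CPM). The pattern was not particular to these 3 lists. Summed gut, kidney and pancreas markers were 108 to 230 CPM in MCD, 102 to 170 in HFD and 61.0 to 84.9 in BD. The summed endothelial markers were 413 to 433 CPM in MCD, 326 to 393 in HFD and 349 to 437 in BD. HFD replicate 2 had the lowest endothelial sum of its diet. In pulverized tissue, more cells of a type and more RNA per cell cannot be told apart. Of 13 macrophage markers, 13 were higher in MCD than in BD and 3 in HFD than in BD, with Cd68 at log2 1.39 in MCD and 0.96 in HFD and Cd5l at 0.95 in MCD and 0.66 in HFD. MCD against HFD gave 2 that were higher, Itgam (log2 0.99) and Lyz2 (log2 0.69). Over all genes 12.8% were called higher in MCD against BD, 3.65% in HFD against BD and 2.22% in MCD against HFD. Their summed level ran from 562 to 726 CPM in MCD, 412 to 598 in HFD and 277 to 471 in BD.

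Of 10 tested stellate cell and fibroblast markers, 9 were higher in MCD than in BD and 6 in MCD than in HFD. Over all genes 12.8% were called higher and 8.64% lower in MCD against BD, and 2.22% higher in MCD against HFD. In HFD against BD edgeR, DESeq2 and limma-voom called none, and 4 had an unadjusted p under 0.05 in edgeR (20.2% of all genes had). Their summed level was 492 to 916 CPM in MCD, 328 to 506 in HFD and 268 to 358 in BD, and the level in HFD replicate 2 was the highest HFD value. Pdgfrb, a receptor of stellate cells, was higher in MCD than in BD (log2 0.97) and than in HFD (log2 0.85), and so was the collagen gene Col1a2 (log2 2.26 against BD and 1.57 against HFD). Of 7 tested cholangiocyte markers, 2 were higher in MCD than in BD, Spp1 among them (log2 1.44), and Sox9 was lower (log2 -0.85). Sox9 was also the only one called in HFD against BD (log2 -0.95), and in MCD against HFD no tool called any and none had an unadjusted p under 0.05. Their summed level was 108 to 281 CPM in MCD, 78.2 to 220.3 in HFD and 86.2 to 120.0 in BD. Spp1 alone averaged 155 CPM in MCD and 56.8 in BD, so this sum rests largely on 1 gene. No marker of these 3 lists had 0 counts over all 15 libraries together. The part of these cells in the Sult1c2 difference was not tested.

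**Figure D3:**
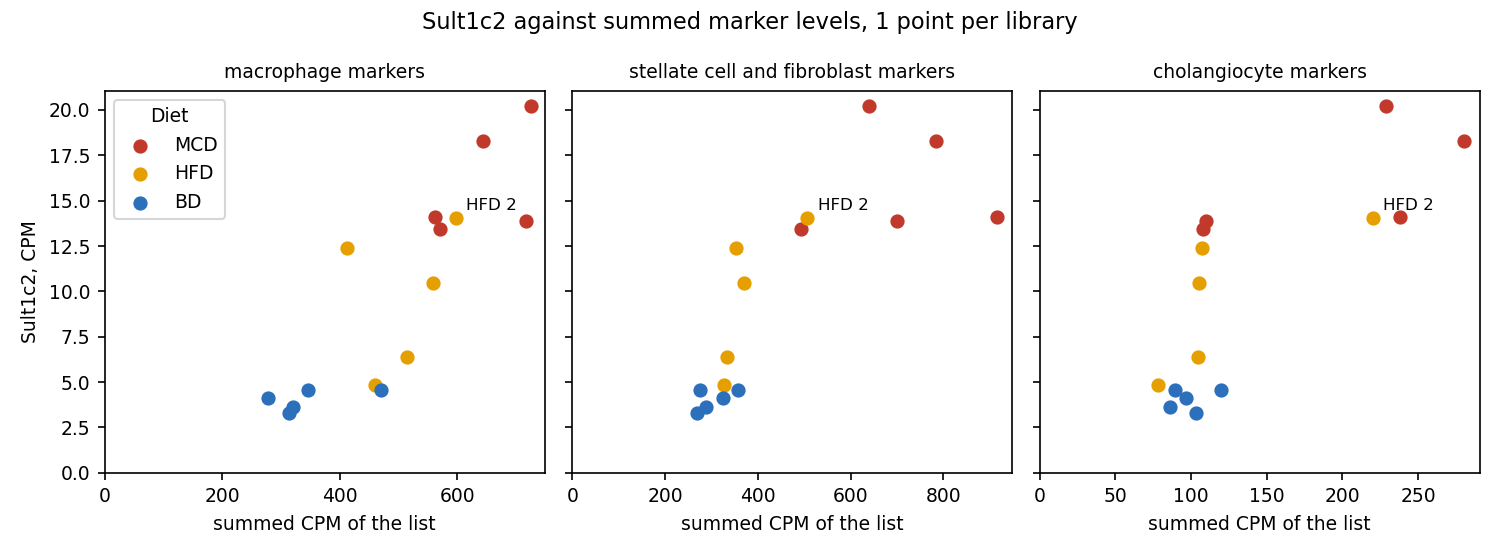
Sult1c2 CPM against the summed CPM of macrophage, stellate cell and fibroblast, and cholangiocyte markers, 1 point per library, coloured by diet (MCD, HFD, BD). HFD replicate 2 has the highest HFD value on every axis, 14.1 CPM of Sult1c2 with 598, 506 and 220.3 CPM of the 3 lists. HFD replicate 5, with 12.4 CPM of Sult1c2, has the lowest HFD macrophage sum (412 CPM). Much of the cholangiocyte sum in MCD and BD is Spp1.

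The genes whose log2 CPM was most like that of Sult1c2 over the 15 libraries were Rab34 (Pearson r = 0.961), Serpinb8 (0.957) and Tceal8 (0.954), out of 11607 tested genes with names that are not predictions. With the mean of each diet taken out, the r values were 0.892, 0.835 and 0.816. These are descriptions over libraries that share diet, depth and makeup of the tissue.

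Sult2a8, a liver sulfotransferase that in the mouse acts on bile acids, gave the largest number of counts of the 8 genes. Its MCD libraries had 559, 851, 669, 702 and 643 CPM, and its HFD libraries 727, 610.2, 840.1, 1051 and 931 CPM. Its BD libraries had 985, 857, 907, 925 and 1374 CPM. Every MCD library lay below every BD library, which was so for 6.08% of all genes, and HFD overlapped both other diets. BD replicate 5 stood above the rest of its diet.

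Sult2a8 fell by 32.1% in MCD against BD (log2 -0.56 ± 0.15 SE, 95% interval -0.88 to -0.24, edgeR adjusted p = 0.0134). HFD against BD gave log2 -0.28 ± 0.15 (interval -0.60 to 0.04, edgeR adjusted p = 0.333), and MCD against HFD gave log2 -0.28 ± 0.15 (interval -0.60 to 0.04, adjusted p = 0.318). The ratio of alignments with several positions to gene counts was 1.19 to 1.66 in MCD, 1.15 to 2.53 in HFD and 1.49 to 2.80 in BD. With this ratio as a covariate, the MCD difference from BD was -0.26 and no longer called (edgeR adjusted p = 0.116). No 50-base stretch of Sult2a8 was shared with another annotated transcript. The gene spans 14410686 to 14446769 on the minus strand of chromosome 7.

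Among the genes most like Sult2a8 over the 15 libraries were Tmem30a (r = 0.935) and Nsun2 (r = 0.924), with r values of 0.888 and 0.858 once diet means were taken out. Of 9 hepatocyte markers found, 4 were lower in MCD than in BD and 1 in HFD than in BD, with Cps1 at log2 -1.56 in MCD and -1.18 in HFD. Fgb, a fibrinogen chain, was lower in MCD than in BD (log2 -0.62) and than in HFD (log2 -0.65). The summed level of the hepatocyte markers was 130715 to 174097 CPM in MCD, 129319 to 157510 in HFD and 145320 to 165696 in BD, with none at 0. Their part in the Sult2a8 difference was not tested.

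Sult1a1, the main phenol sulfotransferase of liver, was called in HFD against BD. Its MCD libraries had 219, 276, 256, 292 and 289 CPM, and its HFD libraries 208, 238, 199.8, 199.6 and 261 CPM. Its BD libraries had 277, 235, 351, 383 and 333 CPM. Most HFD libraries lay below all BD libraries, but the groups overlapped through HFD replicates 2 and 5 and BD replicate 2.

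Sult1a1 fell by 29.9% in HFD against BD (log2 -0.51 ± 0.13 SE, 95% interval -0.78 to -0.25, edgeR adjusted p = 0.0179). The call was lost without HFD replicate 1, HFD replicate 3, BD replicate 3 or BD replicate 4 (edgeR adjusted p = 0.0517, 0.0564, 0.0548 and 0.0607 in that order). MCD against BD gave log2 -0.25 ± 0.13 (interval -0.51 to 0.02, edgeR adjusted p = 0.181), and MCD against HFD gave log2 0.27 ± 0.13 (edgeR adjusted p = 0.247). Sult1a1 (chromosome 7, 126672865 to 126676432, minus strand) shared 7.72% of its 50-base stretches with other genes, most of them with Gm6939, and its exons overlap those of Sgf29 on the opposite strand. Its value is uncertain to that extent, since the strand setting of the counting is not given in the sources used here. The genes most like it were Figf (r = 0.842), Gsta2 (0.817) and Rabgef1 (0.817), with r values of 0.669, 0.614 and 0.623 within diets.

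**Figure D4:**
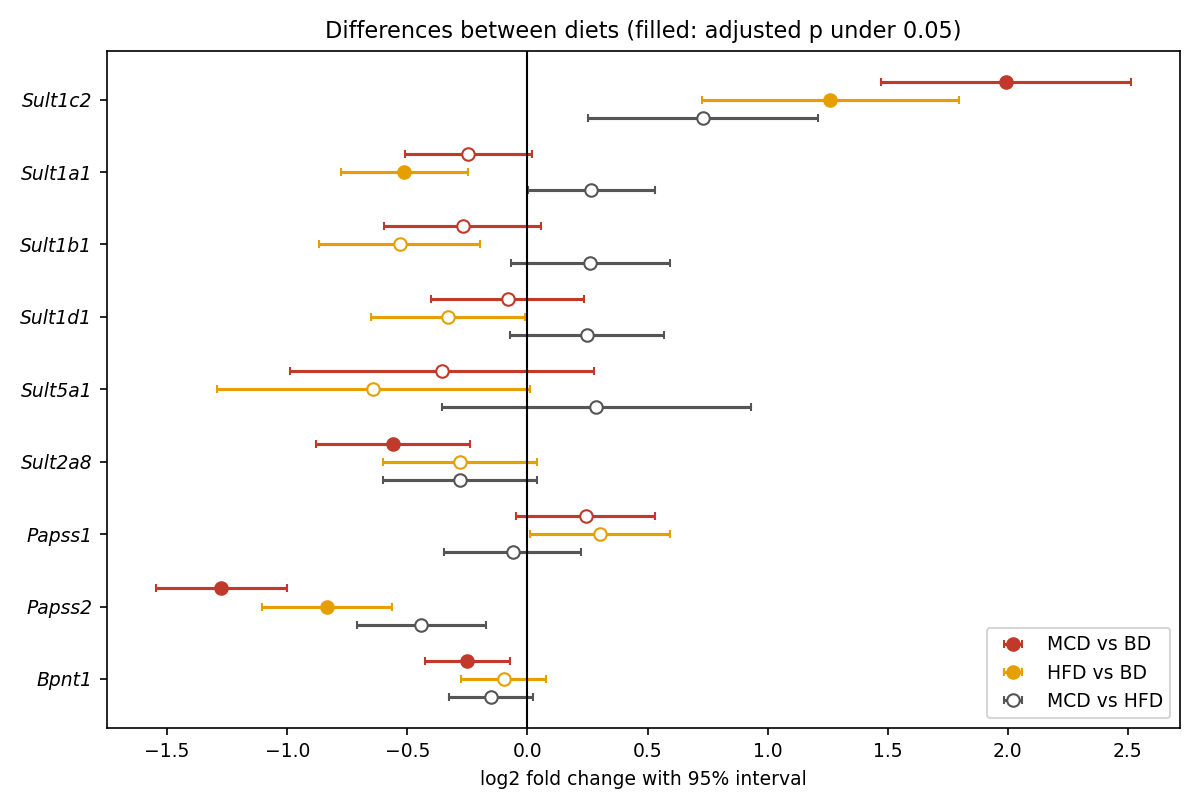
Log2 fold change with its 95% interval for the 6 tested sulfotransferase genes, the PAPS synthases and Bpnt1, from the edgeR fit over 15 libraries, with MCD against BD, HFD against BD and MCD against HFD in each row. Filled points have an adjusted p under 0.05, and the intervals of Sult1c2 against BD (1.47 to 2.51 and 0.73 to 1.80) and of Papss2 against BD (-1.55 to -1.002 and -1.10 to -0.56) lie farthest from 0.

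Sult1b1, which acts on thyroid hormones, lay just outside the threshold in HFD against BD. Its MCD libraries had 25.6, 33.4, 19.2, 24.4 and 19.5 CPM, and its HFD libraries 18.6, 20.3, 19.7, 21.9 and 21.0 CPM. Its BD libraries had 24.4, 22.4, 27.3, 33.1 and 38.5 CPM. All HFD libraries lay below all BD libraries, as for 3.56% of all genes. The coefficient of variation was 23.7% in MCD, 6.11% in HFD and 22.7% in BD.

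In HFD against BD, Sult1b1 had a log2 fold change of -0.53 ± 0.16 SE (95% interval -0.87 to -0.20, edgeR adjusted p = 0.0500065). It was called in 8 of 25 alternative settings, among them DESeq2 (adjusted p = 0.0348) and the fit to the HFD and BD libraries alone (0.0330). MCD against BD gave log2 -0.27 ± 0.16 (edgeR adjusted p = 0.237), and MCD against HFD gave log2 0.26 ± 0.16 (edgeR adjusted p = 0.365). The genes most like Sult1b1 were Klhl12 (r = 0.910), Otc (ornithine transcarbamylase of the urea cycle, 0.898) and Hrsp12 (0.894), with r values of 0.877, 0.822 and 0.833 within diets.

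Sult1d1, which sulfates catecholamines such as dopamine in the mouse, was not called in any comparison. It ranged over 115 to 148 CPM in MCD (median 126.9), 86.1 to 145 in HFD (median 105) and 109.8 to 197 in BD (median 131), and all diets overlapped. Its log2 fold changes were -0.08 ± 0.15 in MCD against BD (95% interval -0.40 to 0.24, edgeR adjusted p = 0.745) and -0.33 ± 0.15 in HFD against BD (interval -0.65 to -0.01, adjusted p = 0.232). MCD against HFD gave 0.25 ± 0.15 (edgeR adjusted p = 0.378). The genes most like it were Phip (r = 0.871), Pum2 (0.869) and Tmx3 (0.868), with r values of 0.870, 0.931 and 0.831 within diets.

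Sult5a1, whose substrates are little known, had the highest coefficients of variation of the 6 tested genes in MCD (35.1%) and HFD (44.1%), and 20.9% in BD. It ranged over 6.21 to 16.1 CPM in MCD, 3.11 to 12.7 in HFD and 10.1 to 17.9 in BD, and the lowest value was HFD replicate 2. Its log2 fold changes were -0.35 ± 0.30 in MCD against BD (95% interval -0.99 to 0.28, edgeR adjusted p = 0.438) and -0.64 ± 0.31 in HFD against BD (interval -1.29 to 0.01, adjusted p = 0.257). Without HFD replicate 2 the HFD value was -0.41. MCD against HFD gave 0.29 ± 0.30 (edgeR adjusted p = 0.641). The genes most like Sult5a1 (chromosome 8, 123140192 to 123158315, minus strand) were Smim11 (r = 0.877), Chtop (0.845) and Cbx1 (0.844), with r values of 0.894, 0.803 and 0.800 within diets.

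Sult1e1, the estrogen sulfotransferase, was near the limit of detection. It had 13 counts in all in MCD, 18 in HFD and 7 in BD. MCD libraries ran from 0.104 to 0.236 CPM. HFD libraries had 0.0843, 0.377, 0.474, 0.434 and 0.269 CPM, against 0, 0.103, 0, 0.142 and 0.236 CPM in BD libraries. By counting error alone, a count of 0 allows up to 3 counts. That is 0.851 TMM-scaled CPM in BD replicate 1, above every HFD value, and 0.258 in BD replicate 3. With no filter on low counts, edgeR gave a log2 fold change of 1.30 in HFD against BD (95% interval -0.0091 to 2.61, adjusted p = 0.322), which was not called.

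Sult3a1 (chromosome 10, 33857721 to 33879532, plus strand), which acts on amines and in mouse liver is known as a female-predominant gene, had 5 counts in all in MCD, 0 in HFD and 1 in BD. A count of 0 allows 3 counts, which is 0.145 to 0.7104 TMM-scaled CPM across the HFD libraries. The counts per library are not independent molecules, so this limit covers counting error only. Of its 50-base stretches 6.15% were shared with other genes, most of them with Sult3a2.

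Beyond these genes, 13 other cytosolic sulfotransferases were found by name, and 1 of them, Sult2a7, was high enough to test. Sult1c1, Sult2a5, Sult2a6, Sult3a2 and Sult6b2 had 0 counts in all libraries. Sult2a7, a member of the hydroxysteroid subfamily, had 0.511, 1.14, 0.615, 0.517 and 0.406 CPM in MCD, against 1.99, 0.825, 1.55, 1.99 and 1.41 CPM in BD. It was lower in MCD than in BD (log2 -1.26 ± 0.38 SE, edgeR adjusted p = 0.0244), with overlap between the diets, and the call was lost in 6 of 24 alternative settings, each without a single MCD or BD library (edgeR adjusted p = 0.0514 to 0.0704).

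Among the genes of PAPS supply, the synthase gene Papss2 was lower in both comparisons with BD. It encodes a bifunctional enzyme that makes the donor and is the main form in liver. MCD libraries had 139.5, 123, 129.9, 161 and 154 CPM, and HFD libraries 183, 148, 186, 222 and 222 CPM. BD libraries had 367, 254, 327, 397 and 369.8 CPM. All MCD and all HFD libraries lay below all BD libraries. Of all genes, 6.08% lay so in MCD against BD and 3.56% in HFD against BD.

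Papss2 fell by 58.7% in MCD against BD (log2 -1.28 ± 0.13 SE, edgeR adjusted p = 4.39e-06) and fell by 43.9% in HFD against BD (log2 -0.83 ± 0.13, edgeR adjusted p = 0.000418). Both calls held in all 25 alternative settings run. MCD against HFD gave log2 -0.44 ± 0.13 (edgeR adjusted p = 0.0653), and without HFD replicate 2 it gave log2 -0.51 and was called (edgeR adjusted p = 0.0148). Papss1, the other synthase, had 19.5 ± 1.46 CPM in MCD, 20.4 ± 3.62 in HFD and 16.3 ± 3.26 in BD (SD, n = 5 each) and was not called.

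Bpnt1, the cytosolic phosphatase that removes PAP, had 80.8 ± 3.60 CPM in MCD and 96.3 ± 7.83 in BD (SD, n = 5 each). It was lower in MCD than in BD (log2 -0.25 ± 0.084, edgeR adjusted p = 0.0406), a call lost in 17 of 25 alternative settings. In the list of 10 genes for sulfate uptake, PAPS synthesis and transport and PAP removal, 8 were tested. In MCD against BD 2 were lower (8.64% of all genes were), in HFD against BD 1 was lower (3.27% of all genes), and none was higher. In MCD against HFD none was called by edgeR or limma-voom and 1 by DESeq2, and 1 had an unadjusted p under 0.05 in edgeR, Papss2. Without HFD replicate 2, 1 of 9 tested was called lower in MCD than in HFD, Papss2, and 1 in MCD than in BD. The median log2 fold change of the 8 was -0.01 in MCD against BD, 0.06 in HFD against BD and -0.17 in MCD against HFD.

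**Figure D5:**
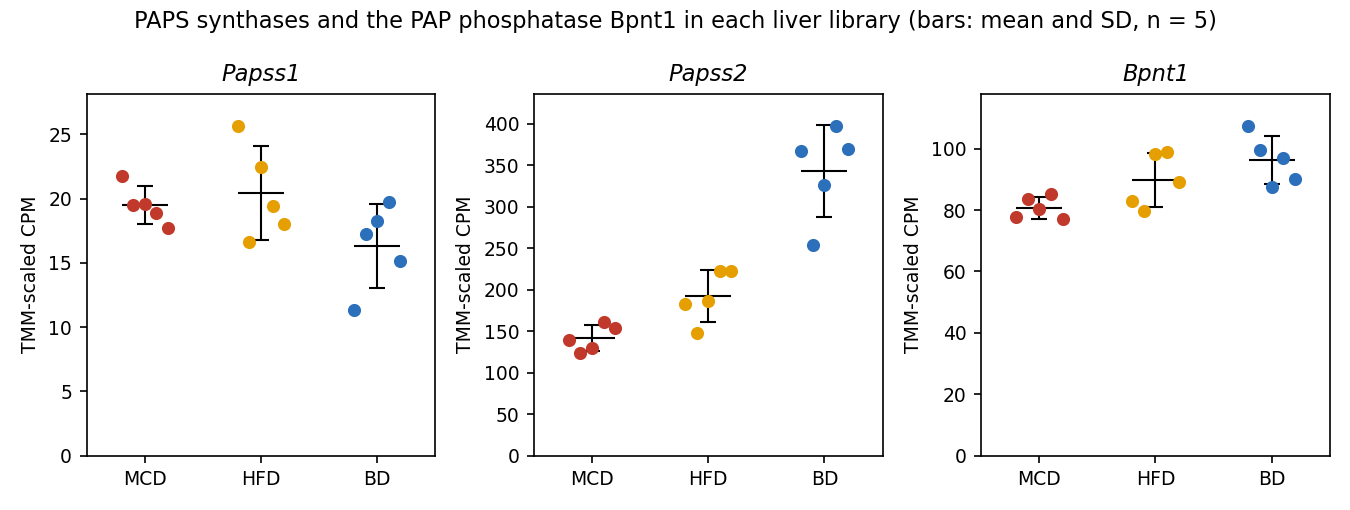
TMM-scaled CPM of Papss1, Papss2 and Bpnt1 in each library, with MCD, HFD and BD from left to right, points for libraries and black bars for the mean and SD (n = 5). Papss2 runs from 123 to 161 CPM in MCD and 148 to 222 in HFD, below the 254 to 397 of BD.

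Sulfate groups are removed by sulfatases and added to sugars and proteins by Golgi sulfotransferases. Of 12 tested sulfatases, 3 were higher in MCD than in BD and 1 in HFD than in BD. Arsg, a lysosomal sulfatase, was higher in MCD (log2 0.74) and in HFD (log2 0.89) than in BD, and Arsa was higher in MCD than in BD (log2 0.85). Of 15 tested Golgi sulfotransferases, 2 were higher and 2 lower in MCD than in BD, among them Chst14 (log2 0.82) and the tyrosine sulfotransferase Tpst1 (log2 -0.70). Over all genes 12.8% were called higher and 8.64% lower there. In HFD against BD 1 was higher, Hs6st1 (log2 0.39). In MCD against HFD edgeR called no gene of either list, and DESeq2 and limma-voom each called 0 sulfatases and 1 Golgi sulfotransferase. An unadjusted p under 0.05 in edgeR was seen for 2 sulfatases and 3 Golgi sulfotransferases there, and for 19.9% of all genes.

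Nuclear receptors and the growth hormone pathway are known to set the levels of many sulfotransferases in rodent liver. Of 18 tested receptors and liver factors, 2 were higher and 3 lower in MCD than in BD, and 1 was higher in HFD than in BD. Over all genes 12.8% were called higher and 8.64% lower in MCD against BD, and 3.65% higher in HFD against BD. Between MCD and HFD edgeR and limma-voom called none and DESeq2 called 1, and 6 had an unadjusted p under 0.05 in edgeR (19.9% of all genes had). Ppara, the fatty acid receptor, was higher in MCD (log2 0.62) and in HFD (log2 0.96) than in BD, and Esr1, the estrogen receptor, was lower in MCD than in BD (log2 -1.06). Stat5b, which carries the growth hormone signal, was lower in MCD (log2 -0.75) and in HFD (log2 -0.56) than in BD. Igf1 was lower in MCD than in BD (log2 -0.54) and than in HFD (log2 -0.44, a call lost in 11 of 25 alternative settings).

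Of 9 tested growth hormone pathway genes, 2 were lower in MCD than in BD, 1 in HFD than in BD and 1 in MCD than in HFD. The shares called lower over all genes were 8.64%, 3.27% and 0.927% in that order. Of 18 tested male-biased liver genes, 5 were lower in MCD than in BD and 2 in MCD than in HFD, with Elovl3 at log2 -2.21 and Ugt2b1 at log2 -0.87 against BD, and Cyp2u1 (log2 -1.002) and Moxd1 against HFD. Moxd1 had 0, 0, 1, 1 and 0 counts in the MCD libraries, against 34, 0, 61, 1619 and 32 counts in the HFD libraries, most of them in HFD replicate 4. Its fitted log2 fold change was -9.22, and -7.06 and no longer called without that library (edgeR adjusted p = 0.0797). None of the 18 was called in HFD against BD by edgeR, and DESeq2 called 2 and limma-voom 1. Of the 18, 4 had an unadjusted p under 0.05 in edgeR there, as had 20.2% of all genes. Of 9 tested female-biased liver genes, 3 were higher and 2 lower in MCD than in BD, with Ntrk2 at log2 2.52 and Cyp3a16 at log2 -2.31. In HFD against BD 3 were higher and 1 lower, with Cyp17a1 at log2 1.89 and Cyp3a16 at log2 -2.52, and in MCD against HFD 1 was lower, Cyp17a1 (log2 -1.73). The shares called higher over all genes were 12.8% in MCD against BD and 3.65% in HFD against BD. The part of these genes in the sulfotransferase differences was not tested.

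The clock genes separated BD from both other diets. Of 17 tested, 9 were higher and 5 lower in MCD than in BD, 10 were higher and 4 lower in HFD than in BD, and none was called in MCD against HFD by edgeR or limma-voom (DESeq2 called 1, and 2 had an unadjusted p under 0.05 in edgeR). Over all genes 12.8% were called higher and 8.64% lower in MCD against BD, and 3.65% and 3.27% in HFD against BD. Cry1 was lower by log2 -1.62 in MCD and -1.61 in HFD against BD, and Nr1d2 was higher by log2 1.52 in MCD and 1.33 in HFD. The time of day at collection is not given in the sources used here, and its part in the differences from BD was not tested.

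Of 9 endothelial markers, 3 were higher in MCD than in BD, Stab2 (log2 0.44) and Pecam1 (log2 0.52) among them, and 1 in MCD than in HFD, Stab2 (log2 0.46). Over all genes 12.8% and 2.22% were called higher in that order. In HFD against BD edgeR, DESeq2 and limma-voom called none, and 1 had an unadjusted p under 0.05 in edgeR (20.2% of all genes had). Of the lymphocyte markers only Cd4 was high enough to test, and it was lower in MCD than in BD (log2 -1.39) and than in HFD (log2 -1.31). Cd4 does not stand for the list. The summed lymphocyte markers were 4.25 to 8.29 CPM in MCD (median 6.09), 4.30 to 6.18 in HFD (median 5.94) and 3.09 to 7.26 in BD (median 4.26). No neutrophil marker was high enough. Of the gut, kidney and pancreas markers 2 were tested. Fabp2 was higher in MCD (log2 1.67) and in HFD (log2 1.36) than in BD, and Cela1 was lower in MCD (log2 -1.15) and in HFD (log2 -0.73) than in BD. Sis, Prss1 and Cpa1, markers of gut and pancreas, had 0 counts in all libraries.

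Without HFD replicate 2, more genes of the lists were called in MCD against HFD, as over all genes. Macrophage markers higher in MCD than in HFD were then 6 of 13, against 2 with that library, and stellate cell and fibroblast markers 7 of 10, against 6. Cholangiocyte markers higher in MCD were 2 of 7, against 0, and endothelial markers 2 of 9, against 1. Among the sulfatases 3 of 12 were higher in MCD than in HFD, against 0, and of 16 tested Golgi sulfotransferases 1 was higher and 1 lower, against 0 each. Male-biased liver genes lower in MCD than in HFD were 6 of 18, against 2, and among the female-biased genes 1 of 9 was higher, against 0. Of the receptors and liver factors Esr1 was lower in MCD than in HFD (log2 -0.79, edgeR adjusted p = 0.0148), and so was Cela1 (log2 -0.59, edgeR adjusted p = 0.0351).

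Without that library, 2 macrophage markers were higher in HFD than in BD, against 3 with it, and 1 female-biased gene was higher, against 3. Clock genes higher in HFD than in BD were 8, against 10, and 1 male-biased gene was higher and 1 lower, against 0 each. A sulfatase was then lower in HFD than in BD (1, against 0), and the call of Cela1 was lost (edgeR adjusted p = 0.0680). In MCD against BD 4 sulfatases were higher, against 3, and 1 Golgi sulfotransferase was lower, against 2. Of the male-biased genes 7 were lower and 1 higher in MCD than in BD, against 5 and 0, and 10 clock genes were higher, against 9.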

How the data were processed

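PolyA RNA from left liver lobe was sequenced in 15 libraries (5 each of MCD, HFD and BD), prepared with a kit that keeps strand, per the labels' protocols. The authors deposited whole-number counts per gene symbol, 1 table per library. The submitters' processing notes name the genome build GRCm38/mm10 and the tools TopHat2 (2.0.13), HTSeq, Trimmomatic and DESeq2. Which annotation, strand setting and HTSeq mode applied is not given in the sources used here. Rows that name no gene were left out of totals and of every test. Of the uniquely placed reads, 12.7% to 17.0% fell outside genes and 0.567% to 0.841% were ambiguous.

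Tests used R 4.3.3 with edgeR 4.0.16. After TMM scaling and filterByExpr by diet (minimum count 10, minimum total 15), all 15 libraries entered a single robust quasi-likelihood model. Each pair of diets was compared by a two-sided F test, with Benjamini-Hochberg adjustment over 12193 genes. The procedure was tested on counts simulated with known folds from the means, library sizes and dispersions of these data. Of 50 genes changed 1.5-fold, 14 were called in HFD against BD, 18 in MCD against BD and 23 in MCD against HFD. At 2-fold these were 38, 39 and 43 of 50. False calls were 3.67%, 3.64% and 6.4% of all calls in that order. A difference of 1.5-fold or less that is not called is thus not shown to be absent. The common biological coefficient of variation was 0.176. CPM are gene counts scaled by TMM, and levels per kb use the transcript length in GENCODE M21. DESeq2 1.42.0 and limma-voom (limma 3.58.1) were alternatives, beside other scalings, filters, thinning, a covariate, a stricter threshold and each library left out. Within diets, the 30 pairs of libraries all differed by more than counting noise, with a chi-square statistic of at least 7.33 per degree of freedom.

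The 18 gene lists, that of the 8 sulfotransferase genes among them (223 of 228 entries found, 5 by an older symbol), were chosen with earlier results of these data known. All 8 sulfotransferases, every called gene of PAPS supply and of the other sulfotransferases, up to 2 called genes per other list and comparison with the smallest p, and the 3 most similar genes per tested member could be named. One of these similar genes is not reported here.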

Additional observations from a re-analysis of the deposited data

Results flagged for a closer look

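In groups of 5 libraries a value was marked where its gap to the nearest other library took up an unusually large part of the group's range (Dixon's test at the 95% level). Over 45 groups 5 values were marked, and chance marks about 1 in 20 groups. Sult1d1 in BD replicate 5 stood at 197 CPM, above the 109.8 to 133 CPM of the other BD libraries. Sult2a8 in the same library stood at 1374 CPM, above 857 to 985 CPM. Sult2a7 stood at 1.14 CPM in MCD replicate 2, above 0.406 to 0.615 CPM in the other MCD libraries, and at 2.26 CPM in HFD replicate 2, above 0.474 to 0.820 CPM in the other HFD libraries. Slc26a2, a sulfate transporter, stood at 1.08 CPM in HFD replicate 5, below 3.08 to 3.79 CPM in the other HFD libraries.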

How the results depend on the processing

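Of 450 recomputed log2 fold changes of the 6 sulfotransferases, 427 kept their direction and their side of the threshold, 12 gained a call, 5 lost one and 6 changed sign. The 6 were never called. Sult1d1 in MCD against BD became 0.057 without TMM factors, 0.16 with the covariate for alignments with several positions and 0.023 after thinning all libraries to 3704642 counts. It ran from -0.16 to 0.086 with single libraries left out, the last without BD replicate 5. With the covariate, Sult2a8 in MCD against HFD became 0.021 and Sult5a1 in MCD against BD became 0.038. The number of sulfotransferases called in HFD against BD ran from 1 to 3 with single libraries left out and was 1 at an adjusted p under 0.01. In MCD against BD it stayed at 2 with single libraries left out and was 1 with the covariate and 1 at an adjusted p under 0.01. In MCD against HFD it ran from 0 to 1 with single libraries left out, was 1 without HFD replicate 2 and MCD replicate 3 together, 1 with limma-voom and 1 with DESeq2. The cause was not tested. Without TMM factors the median of all genes in MCD against BD moved by 0.14 on the log2 scale. Sult1c2 was called against BD in every setting run, at 1.76 to 2.15 in MCD and 1.08 to 1.47 in HFD. Of 1395 recomputed fold changes of other named genes, 1268 kept their call. Calls were lost most often for Bpnt1 (17), Itgam in MCD against HFD (14), and Lyz2 in MCD against HFD and Cela1 in HFD against BD (13 each). In MCD against HFD, Moxd1 lost it in 11 settings, Cd4 in 9, Fgb in 8 and Cyp2u1 in 6, and Spp1 lost it in 7 in MCD against BD. Counts of 0 to 9 per library limit Sult1e1 and Sult3a1.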
